A study of Mus musculus with 6 samples.

Results

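The Notch receptor genes Notch1, Notch2, Notch3 and Notch4, the ligand genes Jag1, Jag2 and Dll4, and the target genes Hey1, Hey2 and Heyl were followed in mouse ear skin. They were picked by gene symbol from a single table of estimated read counts, and all 10 were among its 18482 genes. The table held 3 control and 3 lecko libraries of polyadenylated RNA from skin at postnatal day 21. In the lecko mice the gene Kdr, which encodes the VEGF receptor VEGFR2, was deleted specifically in lymphatic endothelium, and the controls were littermates. Both groups received tamoxifen, the drug that switches on the inducible deletion, so the treatment is shared and only the genotype differs by label. The sources used here do not give the strain, the Cre driver or the tamoxifen schedule of these particular mice. The comparison asks how the genes of this pathway differ in skin when lymphatic vessels lose VEGFR2.

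Notch signalling passes between touching cells. A ligand of the Jagged or Delta-like family on one cell pulls on a Notch receptor on its neighbour, proteases then cut the receptor, and its freed intracellular part enters the nucleus. There it joins the DNA-binding protein RBPJ and switches on target genes, among them the transcriptional repressors of the HEY family. In blood vessels DLL4 and the endothelial receptor NOTCH4 act in the choice between tip and stalk cells and in arterial identity, and VEGF signalling through VEGFR2 is known to raise Dll4. NOTCH3 is the main receptor of pericytes and vascular smooth muscle. In epidermis and hair follicles NOTCH1, NOTCH2, JAG1 and JAG2 act in keratinocyte differentiation, so whole skin mixes vascular and epithelial sources of the same transcripts.

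Promoter windows were held for 8 of the 10 genes in a RefSeq table of GRCm38.p6, and not for Hey1 and Heyl. Each window reached from 250 bases before to 50 bases after a start position. For Jag2 (minus strand) the window, 112929446 to 112929745, lay wholly inside the gene, 112907803 to 112929812. The sequence before the outer end of Jag2 was thus not searched. The start positions of Notch3 and Notch4 lay a few bases inside the gene. All 8 windows were searched on both strands for TGGGAA, the core letters of the RBPJ site, and for CACGTG, an E-box that HEY proteins bind. The window of Hey2 held TGGGAA at 2 places, once on each strand. One match began 207 bases before the gene start on the reverse strand and the other 3 bases before it on the forward strand. Both were also matches to the longer GTGGGAA, which contains TGGGAA. Of 32851 windows in the table, 25.6% held TGGGAA and 6.38% held GTGGGAA. The other 7 windows (Notch1, Notch2, Notch3, Notch4, Jag1, Jag2 and Dll4) did not contain these letters, and none of the 8 contained CACGTG, which 7.15% of all windows held. The Hey2 window is printed because it was the sole one with a match. It lies at chr10:30842734-30843033 on the minus strand, and capitals mark TGGGAA or its reverse complement:

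Hey2: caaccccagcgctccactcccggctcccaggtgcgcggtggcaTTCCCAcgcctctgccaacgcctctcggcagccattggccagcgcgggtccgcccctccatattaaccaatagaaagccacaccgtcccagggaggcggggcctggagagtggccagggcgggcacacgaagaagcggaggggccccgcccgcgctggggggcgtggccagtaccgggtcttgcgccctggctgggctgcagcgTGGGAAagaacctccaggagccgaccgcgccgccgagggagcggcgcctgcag

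Before the comparison, the libraries were checked. Total estimated counts were 17242921 to 17825135 per library. Kdr, the deleted gene, fell from 34.1 ± 3.80 CPM (counts scaled to library size) in the controls to 10.4 ± 0.732 CPM with the deletion (SD, n = 3 each). The log2 fold change of Kdr was -1.72, with an adjusted p of 0.00026 in the edgeR quasi-likelihood fit. Bulk skin does not show which cells lost Kdr RNA, and this was not tested. A set of 4 Y-linked genes (Kdm5d, Uty, Ddx3y and Eif2s3y) summed to 245 and 260 CPM in controls 2 and 3. It summed to at most 1.19 CPM in control 1 and the lecko libraries. The labels give no sex, and by these levels 2 controls were taken as male and 4 libraries as female. Every lecko library was thus female, so sex is partly confounded with genotype, and only control 1 can separate them. Markers of keratinocytes, endothelium, lymphatic vessels, mural cells and leukocytes were all detected in every library. The labels name no animal or litter per library, so the tests see only the spread among the 6 samples.

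Corrected for length, the ligand Jag2 had the highest level of the 10 genes and the target Hey2 the lowest, in each of the 6 libraries. Levels were CPM per kilobase of exon, with exon lengths of 2423 to 10500 bases from GENCODE release M21. In controls Jag2 was at 27.6 ± 2.98, Notch1 at 15.2 ± 2.44, Notch2 at 13.5 ± 0.230, Notch3 at 11.1 ± 1.26 and Jag1 at 10.1 ± 0.882 CPM per kilobase (SD, n = 3 each). A second tier held Hey1 at 3.45 ± 0.143, Dll4 at 2.66 ± 0.572, Heyl at 2.59 ± 0.204, Notch4 at 1.48 ± 0.193 and Hey2 at 0.735 ± 0.159 CPM per kilobase (SD, n = 3 each). The lowest gene of the upper tier, at 8.16 CPM per kilobase for Jag1 in lecko 1, lay above the highest of the lower tier, at 3.58 for Hey1 in control 3. Jag2, Hey1, Notch4 and Hey2 kept ranks 1, 6, 9 and 10 in all 6 libraries. The neighbours Notch1 and Notch2 changed places between libraries, with Notch2 above Notch1 in lecko 1 and lecko 3 only. Jag1 ranked above Notch3, and Dll4 above Heyl, in control 1 only. The order within these pairs was not tested.

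**Figure D1:**
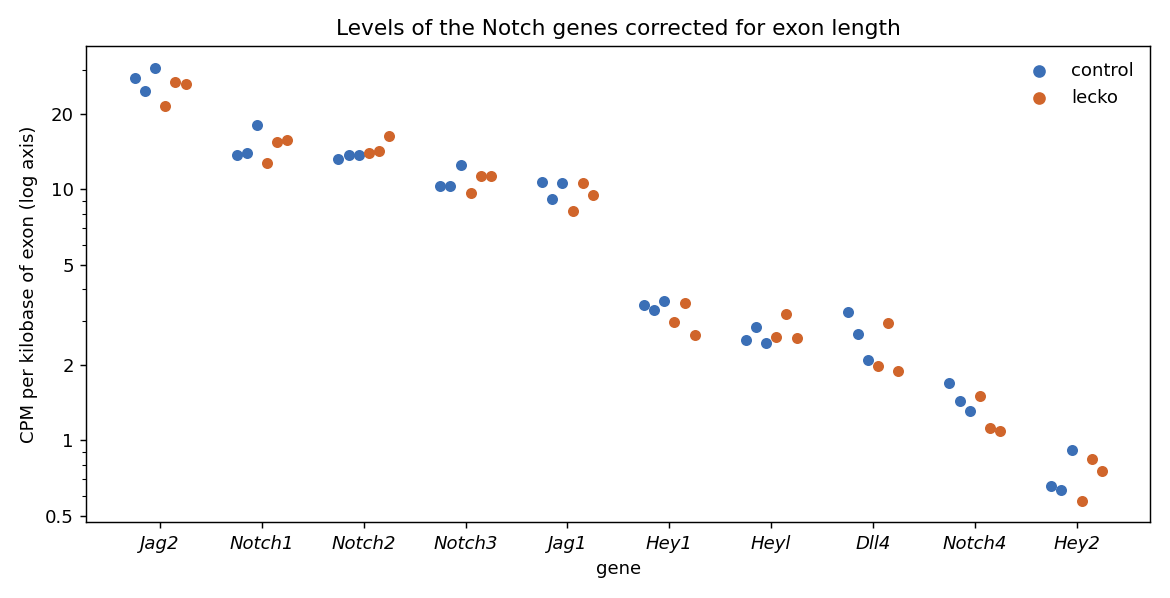
CPM per kilobase of exon (log axis) for the 10 Notch genes, each point a library, ordered by mean level. Jag2 was the highest and Hey2 the lowest in every library, and a gap separates Jag1 (at least 8.16) from Hey1 (at most 3.58).

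Within each family, shares per kilobase were set side by side. Among the receptors Notch1 made up 36.7 ± 2.51% in controls and 35.2 ± 1.53% in lecko skin, Notch2 32.9 ± 2.52% and 35.9 ± 1.77%, and Notch3 26.8 ± 0.654% and 25.9 ± 0.826%. The endothelial receptor Notch4 made up 3.62 ± 0.733% in controls and 3.03 ± 0.813% in lecko skin. Among the 3 ligands Jag2 supplied 68.3 ± 2.19% and 68.1 ± 1.70%, Jag1 25.1 ± 0.649% and 25.7 ± 0.589%, and Dll4 6.62 ± 1.57% and 6.16 ± 1.11% (SD, n = 3 each). These shares of receptors and ligands overlapped between the groups. Among the 3 targets Hey1 made up 48.8 to 52.3% in controls and 44.2 to 48.4% in lecko skin, and Heyl 35.2 to 41.8% and 42.1 to 43.0%. The shares are parts of a single sum and do not vary independently, and the CPM of both genes overlapped between the groups. The Hey2 share overlapped, at 9.35 to 13.2% and 9.42 to 12.8%. These shares were not tested.

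No member of the 10 passed the test between lecko and control skin. In the quasi-likelihood fit of edgeR, adjusted by Benjamini-Hochberg over 14856 genes, 0 of 10 passed the threshold of 0.05 (smallest adjusted p = 0.61, Notch2), where 0.0202% of all genes passed. At an unadjusted p under 0.05 the count was also 0, against 8.56% of all genes, and DESeq2 and limma-voom likewise called 0 members. Of the 10 log2 fold changes 8 were negative and 2 positive, with a median of -0.08 beside 0.01 over all genes tested. The 95% intervals, not adjusted for the number of genes, reached no lower than 0.607-fold (Dll4) and no higher than 1.45-fold (Hey2), and the interval of Kdr ran from 0.258- to 0.359-fold. In bulk skin, fewer cells of a type and less RNA per cell cannot be told apart.

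**Figure D2:**
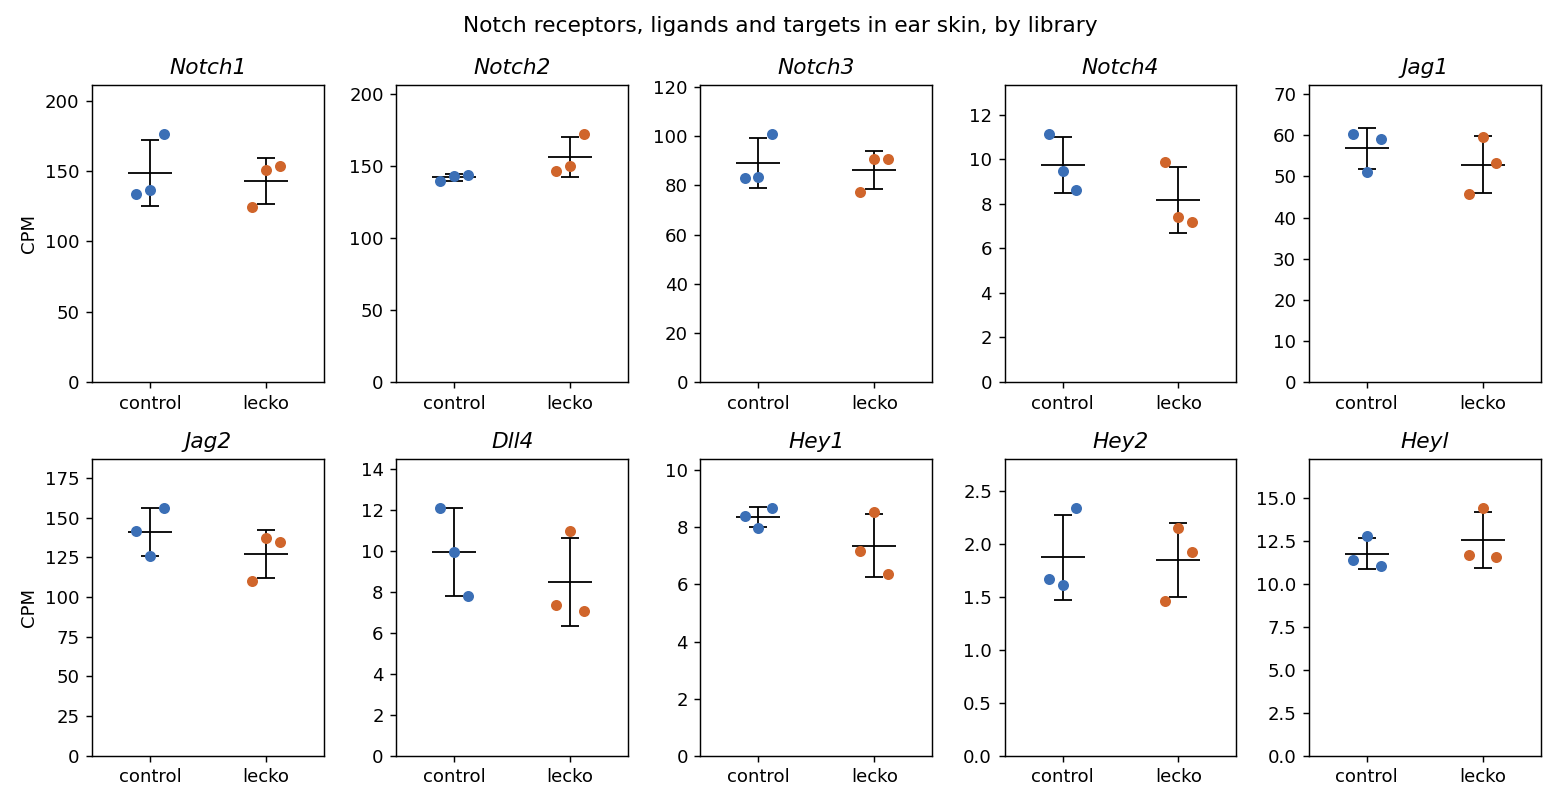
CPM of each Notch gene by library, with the group mean and SD (n = 3 each); every axis starts at 0. Notch2 is the one gene whose lecko libraries (146.6 to 171.7 CPM) all lie above the controls (139.1 to 143.3 CPM).

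Among the receptors, Notch2 was the sole member whose groups did not overlap. Notch2 (chromosome 3, 98013538 to 98150367), which acts in skin beside Notch1, gave 139.1, 143.2 and 143.3 CPM in controls 1 to 3 and 146.6, 149.5 and 171.7 CPM in lecko 1 to 3. All 3 lecko libraries were higher, with lecko 3 well above the rest. The log2 fold change of Notch2 was 0.14 (95% interval -0.02 to 0.29), adjusted p = 0.61 by edgeR. Of all tested genes, 7.37% were higher without overlap and 7.23% lower, so 1 of 10 is near that background. The 3 controls of Notch2 varied by 1.71% (coefficient of variation) where counting error alone gives 1.96%, and the lecko libraries by 8.79%. Without lecko 3 the log2 fold change was 0.06.

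Notch1 (chromosome 2, 26457902 to 26503822), the main receptor of differentiating keratinocytes, gave 133.5, 136.6 and 176.2 CPM in controls and 124.2, 151.0 and 153.5 CPM in lecko skin. The groups overlapped throughout, and control 3 was the highest library and lecko 1 the lowest. Its log2 fold change was -0.06 (95% interval -0.36 to 0.24). Notch3 (chromosome 17, 32120820 to 32166896), known as a mural cell receptor, had the same highest and lowest libraries as Notch1. The cell source of Notch3 in whole skin was not tested. Notch3 gave 83.05, 83.32 and 100.8 CPM in controls and 77.49, 90.98 and 90.64 CPM in lecko skin, a log2 fold change of -0.04 (95% interval -0.26 to 0.17). The spread of Notch1 in controls, 16.0%, was far above the 1.98% of counting error.

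Notch4 (chromosome 17, 34564286 to 34588543), the receptor of endothelium, had the lowest level of the receptors. Notch4 gave 11.12, 9.481 and 8.615 CPM in controls and 9.87, 7.403 and 7.204 CPM in lecko skin. Lecko 2 and 3 were below every control, and lecko 1 was above controls 2 and 3. The log2 fold change of Notch4 was -0.26 (SE 0.16, 95% interval -0.61 to 0.10), adjusted p = 0.68 by edgeR. These values rest on 127 to 193 reads a library, with a counting error of 7.98%. Without control 1 the log2 fold change of Notch4 was -0.16, and without lecko 1 it was -0.42. With the Y-linked class (above or below 10 CPM) as a covariate it was -0.45, adjusted p = 0.90 by edgeR. Only controls 2 and 3 are in the upper class, so this value rests on control 1 against the lecko libraries. Leaving out controls 2 and 3 makes the same contrast, so its value of -0.45 adds nothing separate.

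The 3 ligand genes were each lower on average and each overlapped between the groups. Jag2 (chromosome 12, 112907803 to 112929812) gave 141.7, 125.6 and 156.0 CPM in controls and 109.9, 137.3 and 134.7 CPM in lecko skin. Its log2 fold change was -0.15 (95% interval -0.39 to 0.10). Jag1 (chromosome 2, 137081451 to 137116520), a ligand of hair follicle, epidermis and vessel wall, gave 60.23, 51.20 and 59.22 CPM in controls and 45.80, 59.67 and 53.21 CPM in lecko skin. Lecko 1 was the lowest library for both Jagged genes, and the log2 fold change of Jag1 was -0.11 (95% interval -0.34 to 0.13). With a library left out, Jag2 ranged from -0.23 (without control 2) to -0.06 (without lecko 1), and it was -0.07 without control 3. Jag1 ranged from -0.20 (without lecko 2) to -0.02 (without lecko 1), and it was -0.18 without control 2. The ratio of Jag2 to Jag1 reads stayed between 2.30 and 2.63 in the 6 libraries. That ratio was chosen after its values were seen, with 3 others between members, and its exact two-sided permutation p was 0.6 (0.6 adjusted over the 4).

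Dll4 (chromosome 2, 119325784 to 119335666), the arterial and tip cell ligand that VEGFR2 signalling is known to raise, gave 12.10, 9.941 and 7.816 CPM in controls. In lecko skin it gave 7.388, 10.96 and 7.090 CPM. Lecko 2 lay within the controls, and lecko 1 and 3 lay just below control 3, the lowest of them. The log2 fold change of Dll4 was -0.23 (SE 0.21, 95% interval -0.72 to 0.26), adjusted p = 0.79 by edgeR. Dll4 was among the most variable of the 10 genes, at 21.5% in controls and 25.4% in lecko skin, where counting error was 7.87%. Its log2 fold change was -0.07 without control 1, -0.12 without lecko 3 and -0.46 without lecko 2. With the Y-linked class as a covariate it was -0.51, which rests on control 1, the highest library for Dll4, against the lecko libraries. With that covariate 0 of 10 members had an unadjusted p under 0.05, against 5.22% of all genes.

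Of the 3 target genes, Hey1 was lower on average, and Hey2 and Heyl differed by at most 0.09 on the log2 scale. Hey1 (chromosome 3, 8663359 to 8667038) gave 8.414, 7.987 and 8.672 CPM in controls and 7.163, 8.533 and 6.353 CPM in lecko skin. Lecko 1 and 3 were below every control and lecko 2 was within them. The log2 fold change of Hey1 was -0.19 (95% interval -0.49 to 0.12), and it was -0.31 without lecko 2 and -0.09 without lecko 3.

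Hey2 (chromosome 10, 30832359 to 30842783), an arterial repressor whose promoter is printed above, was counted at 29, 28 and 41 reads in controls and 26, 38 and 34 reads in lecko skin. At this depth counting error was 17.5%, close to the observed 21.6% and 18.8%. Its log2 fold change of -0.02 had a 95% interval of -0.58 to 0.54. Heyl (chromosome 4, 123233556 to 123249870), a target of NOTCH3 in smooth muscle, gave 11.41, 12.81 and 11.07 CPM in controls and 11.67, 14.41 and 11.57 CPM in lecko skin. The groups overlapped, with lecko 2 the highest library, and the log2 fold change of Heyl was 0.09 (95% interval -0.18 to 0.37).

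**Figure D3:**
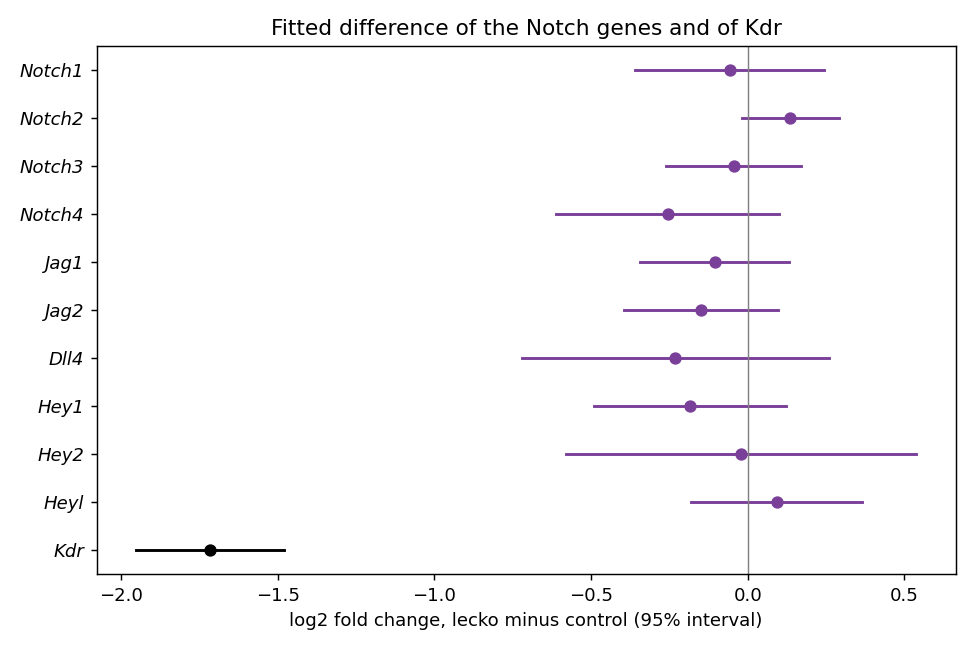
Log2 fold change, lecko minus control, of the 10 Notch genes and of the deleted gene Kdr, with 95% intervals not adjusted for the number of genes. Each Notch interval includes 0, and that of Kdr lies between -1.95 and -1.48.

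Pan-endothelial, arterial and mural markers were also lower on average in lecko skin, and the markers of other cell types were not all alike. Of 15 pan-endothelial markers 13 were negative, with a median log2 fold change of -0.24. Of these 15, 8 had an unadjusted p under 0.05 by edgeR, where 8.56% of all genes did. Their summed level was 591 to 636 CPM in controls and 516 to 562 CPM in lecko skin. The 6 arterial markers were all negative (median -0.20), with overlapping sums of 112 to 123 CPM in controls and 93.9 to 116 CPM in lecko skin. The 12 mural markers had a median of -0.23, with sums of 647 to 691 and 619 to 623 CPM. The 7 lymphatic markers had a median of -0.11, with sums of 359 to 409 and 311 to 338 CPM, and the 7 basal keratinocyte markers a median of -0.12 with overlapping sums. The 5 venous markers had a median of 0.02, with 3 positive and overlapping sums. Outside the vessels, the 8 skeletal muscle markers were all negative with a median of -0.32, and 5 had an unadjusted p under 0.05. Their sums were 6728 to 7539 CPM in controls and 4923 to 6365 CPM in lecko skin. The 6 fibroblast markers had a median of 0.22, with 5 positive and overlapping sums of 15588 to 24744 and 18467 to 20450 CPM. The 7 suprabasal keratinocyte markers had a median of 0.07, with 4 positive and overlapping sums. The 9 hair follicle markers had a median of 0.06, with 6 positive and overlapping sums. The 5 Schwann cell markers were all negative (median -0.10), with sums of 773 to 834 CPM in controls and 692 to 769 CPM in lecko skin. The 8 leukocyte markers were all positive, with a median of 0.45. Their sums of 242 to 369 CPM in controls and 367 to 476 CPM in lecko skin overlapped narrowly. That unadjusted count was 5 of 12 for mural, 4 of 8 for leukocyte and 2 of 6 for arterial markers. It was 2 of 7 for lymphatic and 1 of 6 for fibroblast markers. For venous, basal and suprabasal keratinocyte, hair follicle and Schwann cell markers it was 0. In none of these lists did a gene pass over all genes, and the part of cell makeup in the values of the Notch genes was not tested. Controls 2 and 3 exceeded the Y-linked threshold and no lecko library did, and the part of sex in these lists was not tested.

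Set against the markers, the differences of Notch4 and Dll4 were smaller than the spread within a group. Log2 CPM of Notch4 minus the mean of the pan-endothelial markers was -1.507, -1.785 and -1.958 in controls and -1.602, -1.918 and -1.901 in lecko skin. The difference was -0.06 (exact two-sided permutation p = 0.7, and 0.93 adjusted over the 4 relative measures). For Dll4 the values were -1.387, -1.718 and -2.097 in controls and -2.015, -1.359 and -1.924 in lecko skin, a difference of -0.03 (exact two-sided permutation p = 1, also after adjustment). The group SDs of 0.178 to 0.355 exceeded both differences, and their sign turned with 1 library left out, to 0.06 for Notch4 and 0.14 for Dll4 without control 1. For Dll4 it also turned without lecko 1 (0.09) or lecko 3 (0.05).

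Set against the mural markers, Heyl and Notch3 gave positive differences. Whether their reads in whole skin came from mural or epithelial cells was not tested. Log2 CPM of Heyl minus the mean of the mural markers was -1.214, -1.093 and -1.327 in controls and -1.059, -0.695 and -1.045 in lecko skin, so the groups did not overlap, by a narrow margin at control 2. The difference was 0.28 (exact two-sided permutation p = 0.1, the smallest that 3 against 3 allows, and 0.4 adjusted), and 0.16 without lecko 2. For Notch3 the values were 1.637, 1.597 and 1.846 in controls and 1.66, 1.954 and 1.912 in lecko skin, a difference of 0.15 (exact two-sided permutation p = 0.2, and 0.4 adjusted). Heyl and Notch3 themselves differed by 0.09 and -0.04, and 9 of the 12 mural markers were negative. The 3 positive ones were Pdgfrb at 0.16, Cspg4 at 0.08 and Kcnj8 at 0.23. All 12 weigh equally in the mean, also Cnn1 (-0.61) and Higd1b (-0.54), at 14 to 32 and 20 to 39 reads a library.

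**Figure D4:**
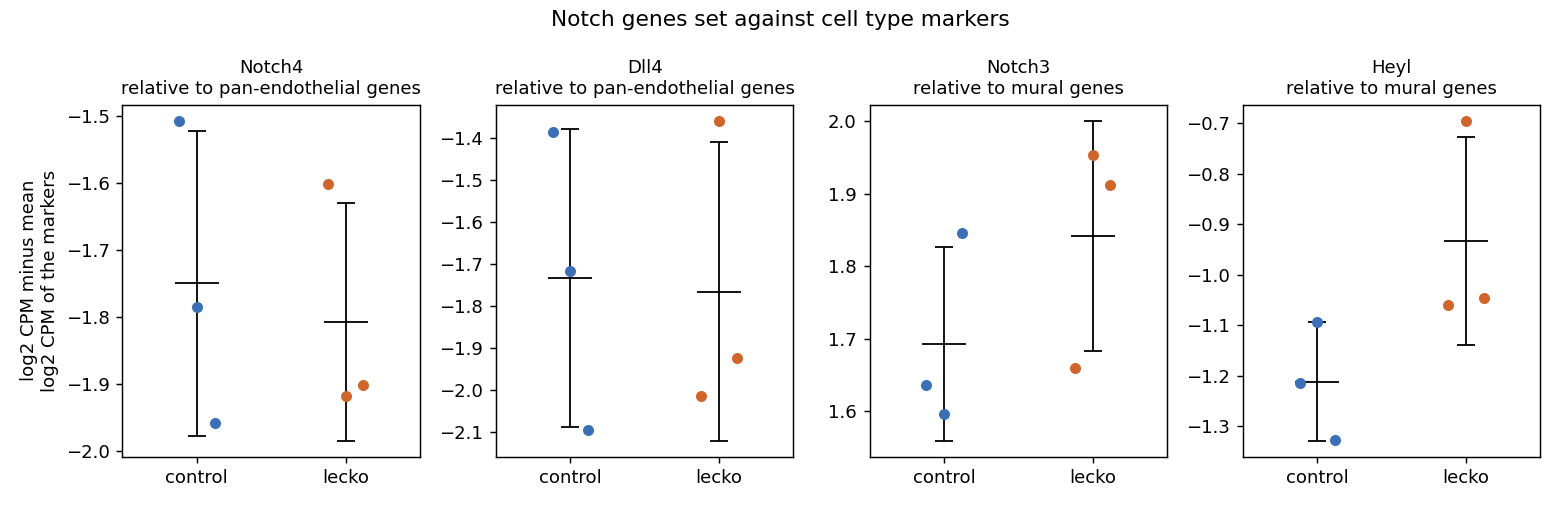
Log2 CPM of a Notch gene minus the mean log2 CPM of cell type markers, by library, with the group mean and SD (n = 3 each). Notch4 and Dll4 overlap widely between the groups. Heyl relative to mural genes is higher in the 3 lecko libraries by 0.28 (exact two-sided permutation p = 0.1, and 0.4 adjusted), where Heyl alone differed by 0.09.

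The wider pathway, a list of 58 other genes that make, modify, cut, carry or answer Notch signals, held 55 tested genes and 0 that passed over all genes (smallest adjusted p = 0.51 by edgeR, Dtx1). At an unadjusted p under 0.05 there were 3 higher and 3 lower, or 10.9%, near the 8.56% of all genes. The groups did not overlap for 5 genes that were higher and 6 that were lower of the 55, beside 7.37% and 7.23% of all genes. The median log2 fold change was 0.00, with 27 positive and 28 negative. DESeq2 and limma-voom also called 0 of them. The remaining genes, Dll3, Hes5 and Hes7, averaged at most 0.325 CPM in either group and were left out by the filter on low counts.

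By role, the 3 tested members among the other ligands were all negative. Dll1, a Delta-like ligand of skin and muscle, averaged 29.5 ± 2.84 CPM in controls against 24.99 ± 1.33 CPM in lecko libraries, and Dlk2, a Delta-like protein, 21.2 ± 2.89 against 17.7 ± 2.18 CPM (SD, n = 3 each). Their log2 fold changes were -0.24 and -0.26. The 5 genes that attach sugars to Notch had a median of -0.11, with the Fringe enzymes Rfng at -0.12 and Lfng at -0.16. The 10 protease genes had a median of 0.06, and 7 were positive. Aph1c and Ncstn, subunits of the gamma-secretase that releases the receptor's intracellular part, were at log2 0.34 and 0.12, and Psenen, another subunit, at -0.10.

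The 14 genes of ligand and receptor trafficking had a median of -0.07 and 10 negative members. Dtx1, a Deltex ubiquitin ligase gene that is itself switched on by Notch, averaged 8.95 ± 1.04 CPM in controls against 6.63 ± 0.810 CPM in lecko libraries (SD, n = 3 each), or -0.43 on the log2 scale (95% interval -0.75 to -0.11). Epn1, an epsin of ligand endocytosis, was at -0.15. The 17 nuclear genes had a median of 0.02. Rbpj, the DNA-binding partner of all 4 receptors, averaged 112 ± 6.18 CPM in controls against 125 ± 5.50 CPM in lecko libraries (SD, n = 3 each), or 0.16 on the log2 scale (95% interval 0.02 to 0.30), and its coactivator gene Maml3 was at -0.11. The unadjusted p of Dtx1 was 0.0137 and that of Rbpj 0.028 by edgeR, and neither passed over all genes. The 3 turnover genes ran from -0.03 to 0.10, with Ccnc at 0.10 and Cdk8 at -0.03. The tested genes listed as other targets were Hes1 at 0.07 (95% interval -0.16 to 0.31), Nrarp at -0.06 (-0.28 to 0.16) and Efnb2 at -0.05 (-0.19 to 0.095). Each of these intervals included 0.

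**Figure D5:**
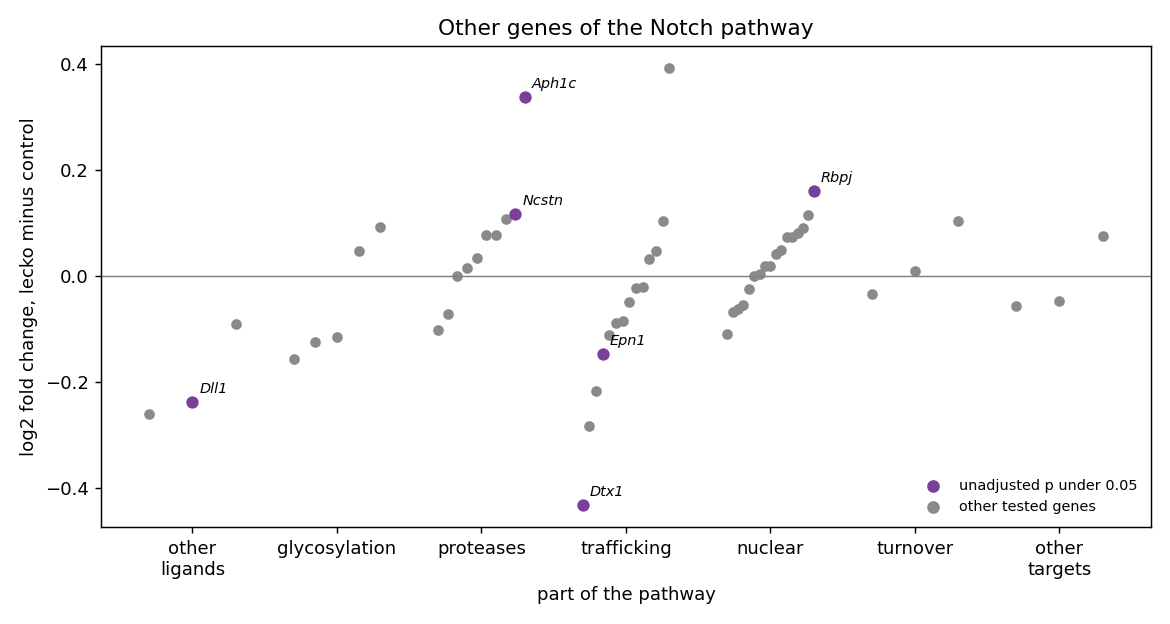
Log2 fold change, lecko minus control, of the 55 tested genes of the wider Notch pathway, grouped by role, each point a gene. The 6 named genes have an unadjusted p under 0.05 and none passed over all genes; the unnamed point at 0.39 is Dtx3l, whose 95% interval runs from -0.75 to 1.53.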

How the data were processed

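Polyadenylated RNA of ear skin was sequenced in 3 control and 3 lecko libraries, grouped by sample title. The deposited table holds estimated counts per gene: fractions make up 9.60 to 10.5% of the values in a library, which identified the unit. All values of the 10 Notch genes are whole. Per the submitters' processing notes, HISAT2 2.2.1, Bowtie2 2.4.5, RSEM 1.3.1 and GRCm38.p6 were used, and the sources used here give neither their order nor the annotation or strandedness. Counts were rounded, filtered with filterByExpr (minimum count 10, minimum total 15), scaled by TMM and tested with edgeR 4.0.16 in R 4.3.3 (robust quasi-likelihood fit with group alone), with Benjamini-Hochberg adjustment over 14856 genes. Log2 CPM used a prior count of 2. Coordinates and promoters come from RefSeq tables of GRCm38.p6, matched by NCBI gene identifier or symbol, and exon lengths are unions over coding transcripts of GENCODE M21, matched by symbol. All 10 members are named, and from each part of the wider pathway up to 2 genes with the smallest p. Genes named beyond this rule (Psenen, Nrarp, Dtx3l, the single mural markers and the genes not tested) were chosen after their values were seen. The members, lists and tests were chosen with earlier results of these data known. Alternatives were DESeq2 1.42.0, limma-voom (limma 3.58.1), other scaling factors and filters, no robust estimation, a Y-linked covariate (threshold 10 CPM), a replicate block and each library left out. Same-numbered libraries were not taken as pairs: deviations from the group means correlated at 0.34, -0.07 and 0.04. The scripts were tested on simulated data. No libraries were duplicates, since replicates varied by 8.43 to 17.5 times what sampling gives.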

Additional observations from a re-analysis of the deposited data

How the results depend on the processing

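Under all 16 alternatives to the fit, 0 Notch members and 0 genes of the wider pathway passed over all genes, while the count over all genes was 3 in the reported fit, 32 by DESeq2 and ranged from 3 to 37 with single libraries left out. Genes at an unadjusted p under 0.05 numbered 776 with the Y-linked covariate and 721 to 1743 with libraries left out. Among the members that count was 0 to 2 with libraries left out. It held Notch2 and Notch4 without lecko 1, where 8.39% of all genes were counted, and Dll4 without lecko 2, where 9% were. In the wider pathway it was 2 by DESeq2, beside 5.47% of the genes that DESeq2 tested. With libraries left out it ran from 1 without control 1 (4.81% of all genes) to 7 without control 2 (11.6% of all genes). The members' median log2 fold change ranged from -0.17 to -0.0011 with libraries left out. Notch2, Notch4, Jag1, Jag2, Dll4 and Hey1 kept their sign in all 16. With the Y-linked covariate Notch1, Notch3 and Hey2 turned positive, at 0.10, 0.057 and 0.14. Without controls 2 and 3, which exceed the Y-linked threshold, they were 0.092, 0.050 and 0.14. That leaves 1 control, assumed to vary like the lecko libraries. Both settings make the same contrast, control 1 against the lecko libraries. With libraries left out the ranges were -0.14 to 0.081 for Notch1, -0.099 to 0.054 for Notch3, -0.14 to 0.17 for Hey2 and -0.018 to 0.15 for Heyl. Relative to pan-endothelial genes, Notch4 ranged from -0.16 to 0.064 and Dll4 from -0.24 to 0.14, and Dll4 was 0.017 against arterial markers. The cause of these turns was not tested. The replicate block gave -0.26 for Notch4 and -0.23 for Dll4 and changed no call. Depth limits Hey2 most, at 26 to 41 reads a library.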

Other observations

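For each Notch gene, the gene with the most similar profile over the 6 libraries was looked up among 13573 others (Pearson r of log2 CPM, given as a description, since so many candidates over 6 libraries always yield some near 1). The same gene, Pou3f1, a POU transcription factor gene of epidermis and Schwann cells, came first for both Notch1 (r = 0.995) and Notch3 (r = 0.999). Jag2 was nearest to Pcdh12, a protocadherin gene of endothelium (0.993), Jag1 to Gdnf (0.991) and Notch2 to Specc1 (0.994). Notch4 was nearest to Ppp1r3c (0.996), Dll4 to Ppp4r2 (0.994), Hey1 to Sdhc (0.990), Hey2 to Mvd (0.996) and Heyl to Arl5b (0.993).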
